A study of Mus musculus with 16 samples.

Results

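Neuronal RNA-binding and splicing regulators are described here through 10 genes, Elavl2, Elavl3, Elavl4, Celf4, Celf5, Nova1, Rbfox1, Rbfox3, Ptbp1 and Ptbp2, of 18193 genes measured in mouse embryo heads. The genes were matched by symbol in the platform annotation, which gave 29 of 34945 probe sets that name 1 gene. All 10 genes were found, and no gene was left out by a filter on low values. Each gene is given first through its brightest probe set, the one with the highest mean over all 16 arrays, and then through its other probe sets. Heads were taken at embryonic day 9.5 (E9.5, 6 arrays), at E11.5 (4 arrays) and at E13.5 (6 arrays), with no treatment or genotype named. Sample titles name the head, the series title names the brain, and the labels do not state the strain or how much tissue was taken. RNA of all stages was isolated with the same lipid tissue column kit. The E9.5 and E11.5 RNA was labelled with a one-cycle kit of the array's maker and the E13.5 RNA with an amplification kit of another company, which means that the kit changes together with the stage in any comparison with E13.5 and that they cannot be told apart.

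Neurons process their transcripts differently from other cells, and a small set of RNA-binding proteins directs much of that programme. The Elavl (Hu) proteins bind U-rich and AU-rich stretches, stabilise transcripts and act on splicing, and Elavl2, Elavl3 and Elavl4 mark newly born neurons. Celf, Nova and Rbfox proteins bind GU-rich, YCAY and GCAUG elements, and where they bind around an exon helps decide whether it is kept. Ptbp1, the polypyrimidine tract protein of progenitors and most other cells, represses neuronal exons. In Ptbp2, its neuronal relative, Ptbp1 causes skipping of an exon, and the skipped transcript is degraded. During differentiation the microRNA miR-124 lowers Ptbp1, and Ptbp2 then accumulates, which is known as the Ptbp1 to Ptbp2 switch.

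Values are log2 intensities of probe sets, and a level of one probe set is not compared with that of another. All arrays had a median intensity of 32 and a lower quartile of 12, so values near 3.58 on the log2 scale lie at the dim end of the array. The poly-A control transcripts averaged 7.93 ± 0.26 at E9.5 (SD, n = 6), 5.64 ± 0.12 at E11.5 (n = 4) and 5.35 ± 0.10 at E13.5 (n = 6). Signal of 18S ribosomal RNA was 7.25 ± 0.42, 10.19 ± 0.30 and 10.74 ± 0.16 in stage order, so controls differed between E11.5 and E9.5 as well, where the kit was the same. The summed linear intensity of 12 neuron markers was 1186 to 2508 at E9.5, 9440 to 10849 at E11.5 and 18689 to 19548 at E13.5. The E9.5 samples 13 and 15 had the lowest neuron sums, 1186 and 1217, against 1604 or more in the other E9.5 samples, and the values of Elavl3, Elavl4, Elavl2, Celf5, Rbfox3, Ptbp2 and the switch are given with and without them. Summed markers of mesenchyme were 3400 to 4521, 7721 to 8307 and 23067 to 25605 in stage order, and 7 of the 8 rose in each comparison. Markers of skeletal muscle summed to 146 to 200, 169 to 192 and 4337 to 5888. The part of these shifts in the results below was not tested, and in bulk tissue fewer cells of a type and less RNA per cell cannot be told apart.

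Of the 10 genes, 9 rose and 0 fell at E11.5 relative to E9.5, where 31.0% of all genes rose and 26.9% fell (adjusted p under 0.05, limma with Benjamini-Hochberg adjustment over all genes). The median log2 difference of the 10 genes was 1.63, against 0.019 over all genes, and 6 of the 10 rose at least 2-fold. At E13.5 relative to E11.5, 6 genes rose and 2 fell, where 27.9% of all genes rose and 27.0% fell, and the median was 0.97 against 7.7e-05 over all genes. At E13.5 relative to E9.5, 8 genes rose and 1 fell, where 32.7% of all genes rose and 29.1% fell, with a median of 2.45 against 0.0068. The 2 genes that fell after E11.5 were Ptbp1 and Ptbp2. The gene without a call at E11.5 relative to E9.5 was Ptbp1, and the one without a call over the whole interval was Ptbp2.

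**Figure D1:**
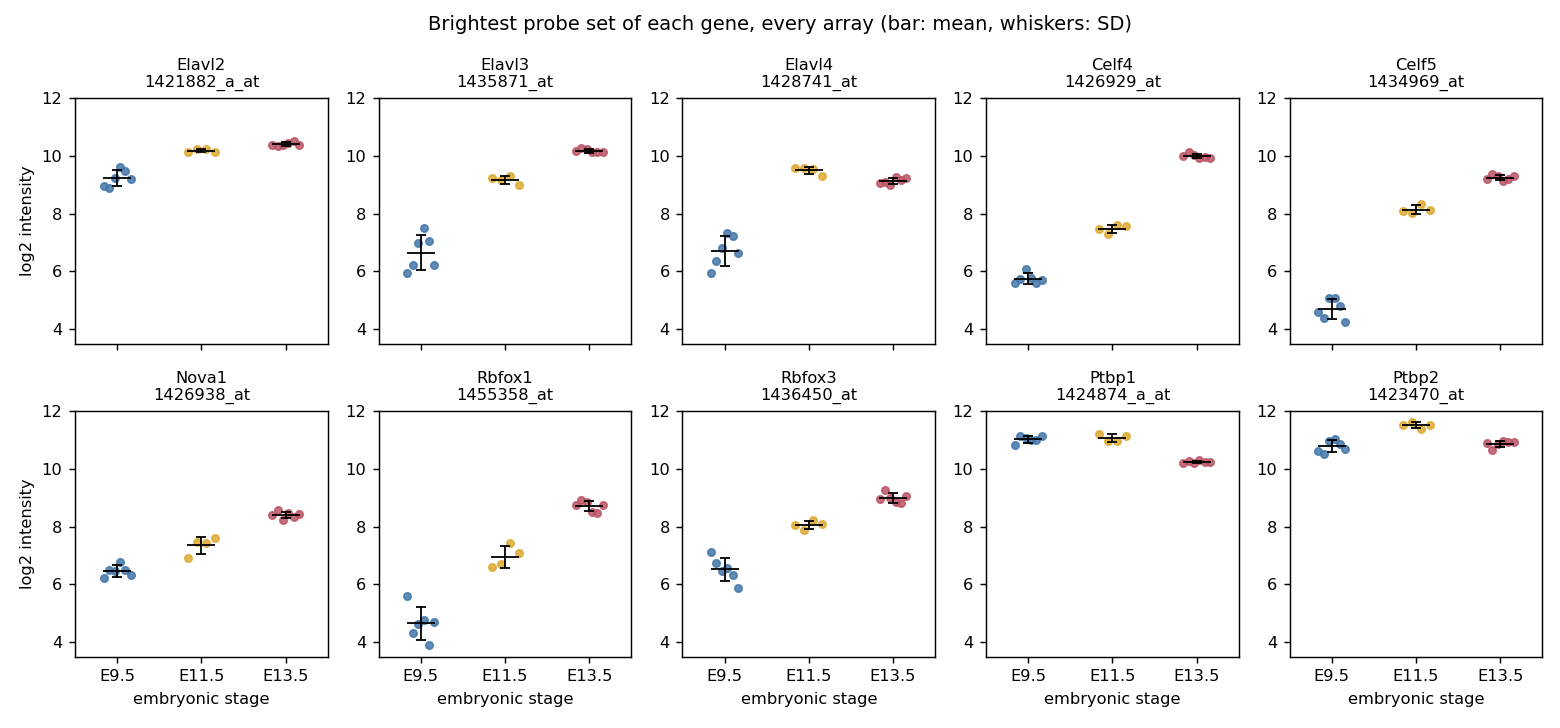
Log2 intensity of the brightest probe set of each of the 10 genes, 1 point per array, with stages on the horizontal axis in order of age. Arrays of E9.5 lie below those of E11.5 in every gene except Ptbp1, and Ptbp1 and Ptbp2 are lower at E13.5 than at E11.5.

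Elavl3 (HuC), an RNA-stabilising protein of young neurons, had log2 intensities of 5.95 at the lowest, 6.59 at the median and 7.49 at the highest of the E9.5 arrays, 9.22, 9.15, 9.29 and 8.99 at E11.5, and 10.12, 10.15 and 10.28 at the lowest, median and highest of E13.5. No array of one stage overlapped with another stage, and each stage lay above the one before. Elavl3 rose 5.71-fold at E11.5 relative to E9.5 (log2 difference 2.51 ± 0.21 SE, adjusted p = 3.6e-09) and again by 1.01 ± 0.21 at E13.5 relative to E11.5 (adjusted p = 3.9e-04). Without the E9.5 samples 13 and 15 the first difference was 2.23. Its other probe sets, in order of brightness, also rose in both steps, by 2.40 and 1.81 at E11.5 relative to E9.5 and by 1.65 and 0.36 at E13.5 relative to E11.5.

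Elavl4 (HuD), which binds transcripts of growing neurites, had 5.93, 6.73 and 7.31 (lowest, median, highest) at E9.5, 9.56, 9.57, 9.54 and 9.32 at E11.5, and 8.99, 9.14 and 9.28 at E13.5. The E11.5 arrays were the highest of all 16. Elavl4 rose 6.88-fold at E11.5 relative to E9.5 (2.78 ± 0.19, adjusted p = 1.3e-10). Its difference at E13.5 relative to E11.5 was -0.36 ± 0.19 and was not called (adjusted p = 0.108), although the arrays did not overlap. When the fit held E13.5 and E11.5 alone, the same difference was called (adjusted p = 0.0016). The SD of Elavl4 was 0.52 at E9.5, 0.12 at E11.5 and 0.11 at E13.5, and the fit of all stages shares 1 spread. Its other probe sets were at 0.24 and 0.29 in that step, also without a call, and rose by 1.61 and 2.05 at E11.5 relative to E9.5. Without the E9.5 samples 13 and 15 the difference at E11.5 relative to E9.5 was 2.5.

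Elavl2 (HuB), the Hu protein that is also found in germ cells, had 8.88, 9.23 and 9.62 (lowest, median, highest) at E9.5, 10.14, 10.24, 10.22 and 10.13 at E11.5, and 10.34, 10.38 and 10.51 at E13.5. It rose by 0.95 ± 0.11 at E11.5 relative to E9.5 (adjusted p = 4.1e-07). The difference of 0.22 ± 0.11 at E13.5 relative to E11.5 was not called in the fit of all stages (adjusted p = 0.106), and it was called in the fit of E13.5 and E11.5 alone (adjusted p = 0.0067). The SD of Elavl2 was 0.28 at E9.5, 0.054 at E11.5 and 0.063 at E13.5. Without the E9.5 samples 13 and 15, also its lowest E9.5 arrays, the earlier difference was 0.80. Its 5 probe sets spread widely. At E11.5 relative to E9.5, 4 of the 5 rose, the dimmer ones of these by 2.43 and 1.69 and the second-brightest by 0.50. The dimmest, with all values at 4.46 or below, differed by -0.054 without a call. At E13.5 relative to E11.5, 3 of the 4 other probe sets rose in the fit of all stages, by 0.63 (the second-brightest, adjusted p = 2.1e-05), by 1.01 (adjusted p = 6.3e-06) and by 0.45 (the dimmest, adjusted p = 0.0012). The remaining one was at -0.061 without a call, so the brightest probe set and most of the others differ in their call for this step.

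Celf5, a GU-binding splicing regulator of the nervous system, had 4.25, 4.70 and 5.09 (lowest, median, highest) at E9.5, 8.10, 8.01, 8.34 and 8.12 at E11.5, and 9.13, 9.25 and 9.36 at E13.5. No arrays of different stages overlapped. Its 10.9-fold rise at E11.5 relative to E9.5 (3.44 ± 0.14, adjusted p = 1.5e-13) was the largest of the 10 genes by brightest probe set, and it rose a further 2.15-fold at E13.5 relative to E11.5 (1.11 ± 0.14, adjusted p = 8.9e-07). Only 1 probe set names it, and without the E9.5 samples 13 and 15 the earlier difference was 3.33.

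Celf4, which regulates synaptic transcripts in excitatory neurons, had 5.61, 5.71 and 6.09 at E9.5, 7.45, 7.29, 7.61 and 7.55 at E11.5, and 9.91, 9.98 and 10.12 at E13.5. Its later step was larger than its earlier one, with a 5.71-fold rise at E13.5 relative to E11.5 (2.51 ± 0.09, adjusted p = 2.2e-14) and a 3.29-fold rise at E11.5 relative to E9.5 (1.72 ± 0.09, adjusted p = 8.3e-12). The difference between these steps was not tested. Its dimmest probe set had the same order of steps (2.15, then 2.94), and the second-brightest the opposite one (2.90, then 1.5).

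**Figure D2:**
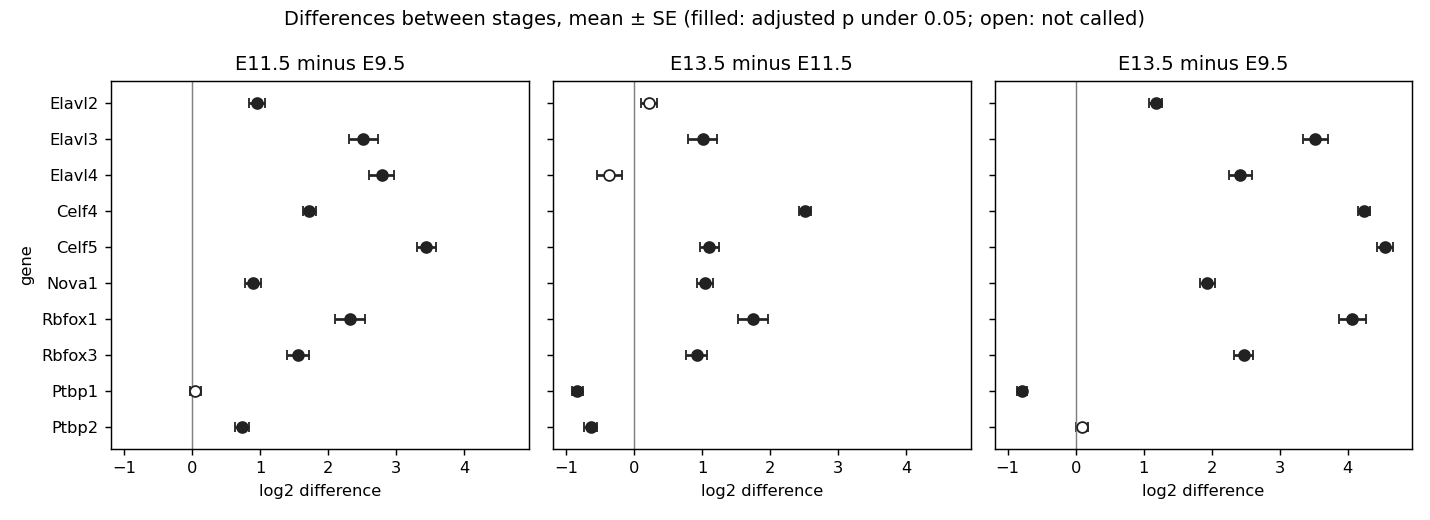
Log2 difference of the brightest probe set of each gene in the 3 comparisons, later stage minus earlier, with bars of 1 SE and filled points for called differences. Celf5 has the largest difference at E11.5 relative to E9.5 (3.44), Celf4 at E13.5 relative to E11.5 (2.51), and Ptbp1 and Ptbp2 lie below 0 in the later step.

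Nova1, the YCAY-binding splicing factor first known as an autoantigen in a motor disorder, had 6.21, 6.48 and 6.79 (lowest, median, highest) at E9.5, 6.93, 7.47, 7.42 and 7.61 at E11.5, and 8.23, 8.42 and 8.57 at E13.5. The 3 stages did not overlap. It rose by 0.89 ± 0.12 at E11.5 relative to E9.5 (adjusted p = 2.8e-06) and by 1.05 ± 0.12 at E13.5 relative to E11.5 (adjusted p = 3.5e-07). Its other probe set, at 4.52 or below on every array, rose by 0.49 in the earlier step (adjusted p = 0.023) and differed by -0.20 in the later step without a call.

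Rbfox1, a GCAUG-binding splicing factor of neurons and of striated muscle, had 3.91, 4.67 and 5.58 (lowest, median, highest) at E9.5, 6.61, 6.70, 7.44 and 7.10 at E11.5, and 8.49, 8.75 and 8.93 at E13.5. It rose 4.97-fold at E11.5 relative to E9.5 (2.31 ± 0.22, adjusted p = 2.3e-08) and 3.37-fold at E13.5 relative to E11.5 (1.75 ± 0.22, adjusted p = 1.1e-06). Of 8 skeletal muscle markers, 6 also rose in that later step and 0 fell, and their part in the Rbfox1 result was not tested. The second-brightest probe set gave most of its rise after E11.5, with 1.10 at E11.5 relative to E9.5 and 2.98 at E13.5 relative to E11.5. A further probe set rose by 0.93 and by 1.18. The dimmest of its 4 probe sets rose by 0.90 in the earlier step and differed by 0.12 in the later one, without a call.

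Rbfox3, whose protein is the neuronal nuclear antigen NeuN, had 5.88, 6.51 and 7.11 (lowest, median, highest) at E9.5, 8.05, 7.89, 8.22 and 8.11 at E11.5, and 8.81, 8.97 and 9.26 at E13.5. In this probe set no stages overlapped, and the rises were 1.55 ± 0.16 (adjusted p = 6.2e-08) and 0.92 ± 0.16 (adjusted p = 5.4e-05) for the earlier and the later step. The second-brightest probe set rose by 0.49 in the earlier step, where E9.5 and E11.5 overlapped, and by 0.72 in the later one. The dimmest differed by 0.025 in the earlier step without a call (adjusted p = 0.90) and rose by 0.55 in the later one, with overlap between stages in both. Both dimmer sets thus had the larger value in the later step, unlike the brightest, and these orders were not tested. The E9.5 samples 13 and 15, which were low for Elavl3 and Elavl4, were the highest E9.5 arrays for Rbfox3, at 7.11 and 6.75. Without both samples the earlier difference of Rbfox3 was 1.76, and no called difference of the 10 genes moved by more than 1.5 times.

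Ptbp1 had 10.81, 11.03 and 11.15 (lowest, median, highest) at E9.5, 11.22, 10.96, 10.95 and 11.14 at E11.5, and 10.18, 10.23 and 10.29 at E13.5. E9.5 and E11.5 overlapped, and every E13.5 array lay below both. The gene fell at E13.5 relative to E11.5 and was 1.78-fold lower (-0.83 ± 0.08, adjusted p = 2.6e-08), and its difference at E11.5 relative to E9.5 was 0.04 ± 0.08 without a call (adjusted p = 0.672). Of 8 markers of neural progenitors, 6 also fell and 2 rose in that step, and their summed intensity was 6604 to 7061 at E13.5, against 8360 to 9341 at E11.5. Of 6 measured blood markers, 6 fell and 0 rose in the same step, and their sum was 13818 to 17120 at E13.5, against 27490 to 38626 at E11.5. The part of either list in the fall of Ptbp1 was not tested, and stage and labelling kit cannot be told apart in it.

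Ptbp2 had 10.49, 10.78 and 11.03 (lowest, median, highest) at E9.5, 11.51, 11.61, 11.37 and 11.53 at E11.5, and 10.66, 10.89 and 10.96 at E13.5. The E11.5 arrays lay above all others, and E9.5 and E13.5 overlapped. Ptbp2 rose 1.66-fold at E11.5 relative to E9.5 (0.73 ± 0.10, adjusted p = 2.8e-06), fell at E13.5 relative to E11.5 and was 1.56-fold lower there (-0.64 ± 0.10, adjusted p = 1.6e-05), and differed by 0.09 ± 0.09 over the whole interval (adjusted p = 0.399). Without the E9.5 samples 13 and 15, also its lowest E9.5 arrays, the earlier difference was 0.62. Its other, dimmer probe set disagreed in direction after E11.5. That probe set had 5.73, 6.08 and 6.32 at E9.5, 7.01, 6.88, 6.87 and 6.98 at E11.5, and 7.13, 7.18 and 7.32 at E13.5, with no overlap between stages. It rose by 0.87 at E11.5 relative to E9.5 and by 0.27 at E13.5 relative to E11.5 (adjusted p = 0.027), and it was 1.14 higher at E13.5 than at E9.5 (adjusted p = 4.2e-10). The late fall of Ptbp2 therefore rests on 1 of its 2 probe sets.

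The switch was read as the log2 intensity of Ptbp2 minus that of Ptbp1 on the same array, and only its change between stages is used. It was -0.63, -0.15 and 0.04 (lowest, median, highest) at E9.5, 0.30, 0.65, 0.42 and 0.38 at E11.5, and 0.41, 0.67 and 0.69 at E13.5. Every E11.5 and E13.5 array lay above every E9.5 array, and E11.5 and E13.5 overlapped. The difference rose by 0.68 ± 0.13 at E11.5 relative to E9.5, a 1.61-fold change of the ratio (two-sided exact permutation p = 0.00476, the smallest that 4 against 6 arrays allow, and adjusted p = 0.00714 over 3 tests). Without the E9.5 samples 13 and 15 it was 0.61. It rose by 0.88 ± 0.11 at E13.5 relative to E9.5, or 1.84-fold (exact permutation p = 0.00216, the smallest possible, and adjusted p = 0.00649). At E13.5 relative to E11.5 it differed by 0.20 ± 0.09 and was not called (exact permutation p = 0.0524, adjusted p = 0.0524). It was called there when E11.5 sample 36, 51 or 52 or E13.5 sample B62E7K was left out, at 0.27, 0.19, 0.18 and 0.24. In the earlier step Ptbp2 rose and Ptbp1 was not called, and in the later step both fell. When every probe set of a gene was averaged, the earlier step was -0.60, the opposite direction, where the mean of Ptbp1 includes the probe set described next. With the dimmer Ptbp2 probe set the later step was 1.10 and was called, and with the dimmest Ptbp1 probe set beside the brightest Ptbp2 set it was -0.51 and was called in the opposite direction (exact permutation test, adjusted p = 0.0143).

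**Figure D3:**
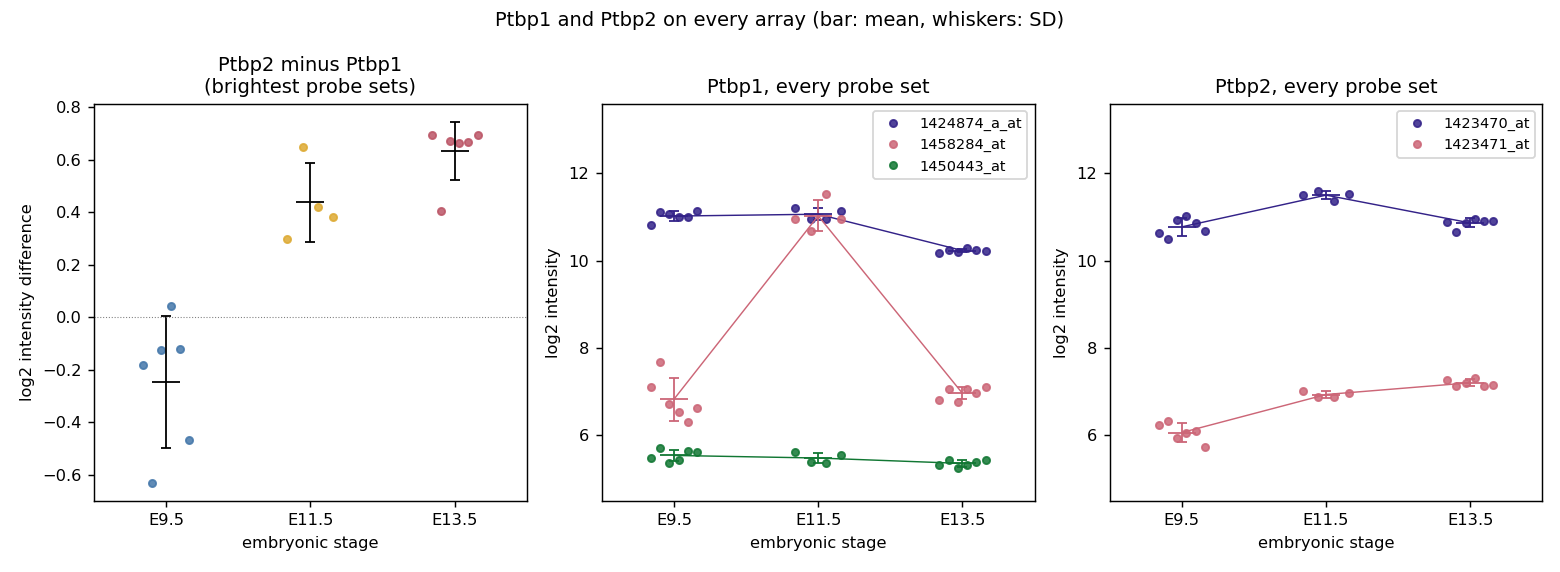
The left panel plots the log2 difference of Ptbp2 minus Ptbp1 on each array by stage, and the others the log2 intensity of every Ptbp1 and Ptbp2 probe set (bars, mean; whiskers, SD), listed from the brightest. The difference lies between -0.63 and 0.04 at E9.5, between 0.30 and 0.65 at E11.5 and between 0.41 and 0.69 at E13.5.

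The second-brightest probe set that the annotation assigns to Ptbp1 rose at E11.5 relative to E9.5, unlike the other probe sets of the gene. It had 6.30, 6.67 and 7.68 (lowest, median, highest) at E9.5, 10.97, 10.67, 11.52 and 10.96 at E11.5, and 6.77, 7.01 and 7.11 at E13.5. It rose by 4.20 ± 0.20 at E11.5 relative to E9.5 (adjusted p = 1.2e-12) and fell by 4.07 ± 0.20 at E13.5 relative to E11.5 (adjusted p = 1.1e-12). The dimmest Ptbp1 probe set differed by -0.06 and -0.12 in these steps without a call. The later difference of the brightest set, -0.83, was thus not called in the dimmest. At E13.5 relative to E9.5 the dimmest differed by -0.18 and was called (adjusted p = 0.046). Whether the second-brightest set reads the Ptbp1 transcript was not tested.

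Over all 29 probe sets, 25 rose and 0 fell at E11.5 relative to E9.5, where 27.2% of all named probe sets rose and 28.0% fell. At E13.5 relative to E11.5, 18 rose and 3 fell, against 25.9% and 28.4% of all. The 3 that fell were the brightest and second-brightest of Ptbp1 and the brightest of Ptbp2. At E13.5 relative to E9.5, 24 rose and 2 fell, against 28.7% and 32.5%. Probe sets of 1 gene share its transcripts and are not separate observations.

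**Figure D4:**
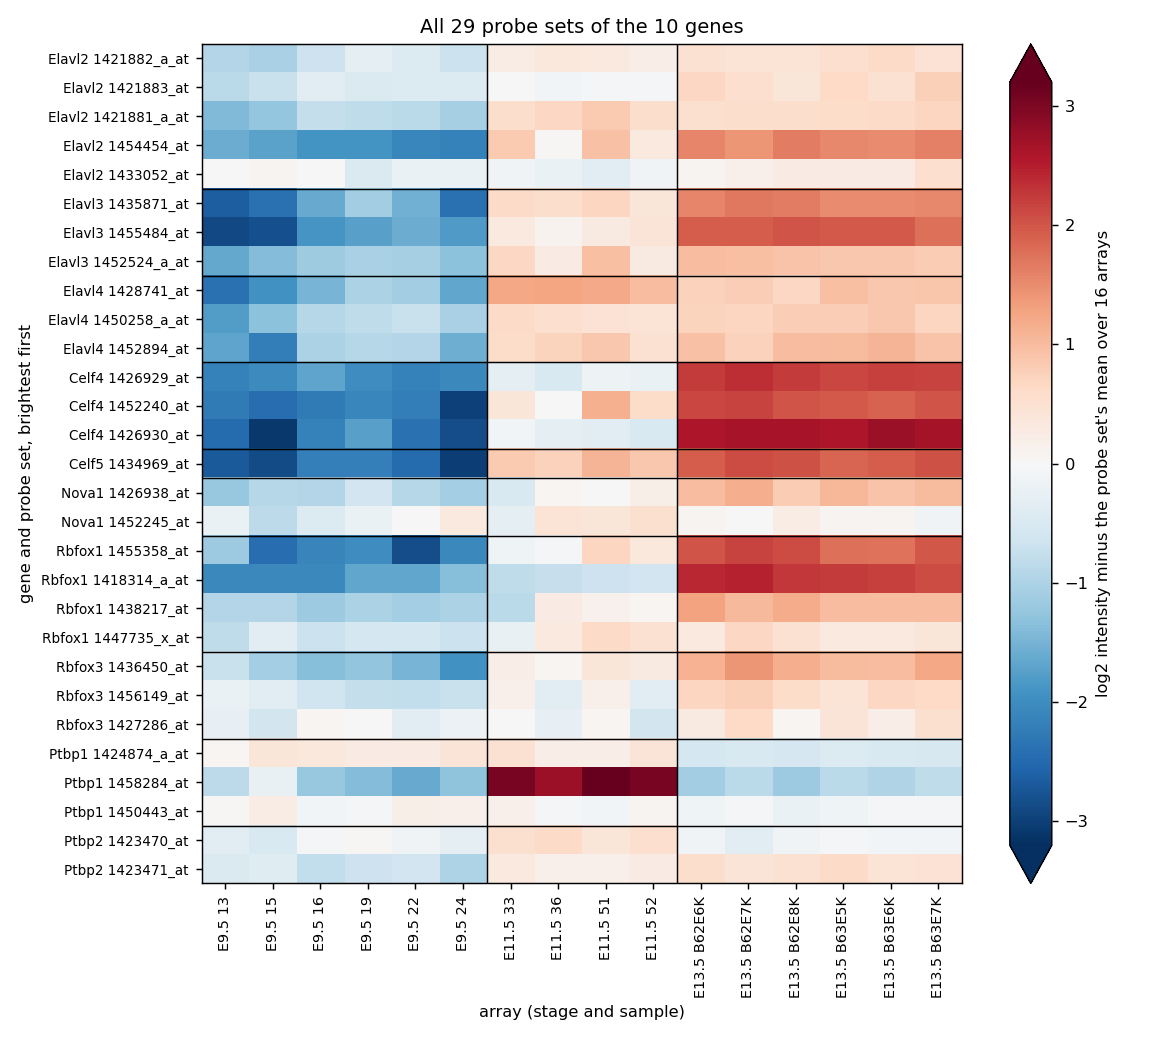
Heat map of log2 intensity minus the mean of the probe set over 16 arrays, with a row for each of the 29 probe sets, brightest first within a gene, and a column for each array in order of stage. The second Ptbp1 row is high on the 4 E11.5 arrays alone, and most Elavl, Celf and Rbfox rows pass from blue (below the mean) at E9.5 to red (above it) at E13.5.

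Promoter sequence was available for 9 of the 10 genes in RefSeq (GRCm38.p6), with 22 start sites, and 250 bases upstream of each start were searched on both strands. The letters CAGCTG, an E-box that proneural factors can bind, were found at 6 of the 22 starts, in 5 genes. They were found in 13% of 32851 promoters of the same length. Shares of all promoters are by start, and no share by gene was computed. The letters CAGATG, another E-box, were found at 4 of the 22 starts, in 2 genes, and in 14.4% of all promoters. The letters TTCAGCACC, from the element that the repressor Rest binds, were found in 0 of the 22 and in 0.301% of all. Starts of 1 gene can share bases, and a match is a description of the letters and not of a bound site. The windows of Elavl3, which rose throughout, and of Ptbp2 and Ptbp1, the genes of the switch, are shown 5′ to 3′ on the strand of the gene, with CAGCTG and CAGATG in capitals. Other E-box letters were not searched for and stay in lower case. They lie at chr9:22052024-22052273 on the minus strand (Elavl3), chr3:119783389-119783638 on the minus strand (Ptbp2) and chr10:79854182-79854431 on the plus strand (Ptbp1).
Elavl3: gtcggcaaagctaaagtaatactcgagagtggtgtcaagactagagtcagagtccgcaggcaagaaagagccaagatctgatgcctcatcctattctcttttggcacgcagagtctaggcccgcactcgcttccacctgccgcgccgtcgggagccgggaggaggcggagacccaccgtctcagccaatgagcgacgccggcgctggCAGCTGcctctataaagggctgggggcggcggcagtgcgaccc
Ptbp2: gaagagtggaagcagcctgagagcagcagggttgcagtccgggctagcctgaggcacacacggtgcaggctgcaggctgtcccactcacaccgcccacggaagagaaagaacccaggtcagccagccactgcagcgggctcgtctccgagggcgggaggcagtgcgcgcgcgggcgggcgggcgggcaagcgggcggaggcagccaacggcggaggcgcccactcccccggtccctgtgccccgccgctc
Ptbp1: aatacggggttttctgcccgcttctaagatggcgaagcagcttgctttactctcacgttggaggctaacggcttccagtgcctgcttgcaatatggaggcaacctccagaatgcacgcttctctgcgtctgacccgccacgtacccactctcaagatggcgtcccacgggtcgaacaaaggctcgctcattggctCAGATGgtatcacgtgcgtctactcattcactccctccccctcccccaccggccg
The Elavl3 window held 1 CAGCTG, the Ptbp1 window 1 CAGATG, and the Ptbp2 window neither. G and C made up 61.6% of the Elavl3 window, 72.4% of the Ptbp2 window and 57.6% of the Ptbp1 window, against a median of 52.4% over all promoters.

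Of 8 paralogs of the 10 genes, 4 rose and 1 fell at E11.5 relative to E9.5 (median 0.40), 3 rose and 1 fell at E13.5 relative to E11.5 (median 0.05), and 5 rose and 1 fell over the whole interval (median 1.18). Of all genes, 31.0% rose and 26.9% fell in the first of these comparisons. The shares were 27.9% and 27.0% in the second and 32.7% and 29.1% in the last. The 3 of 8 paralogs that rose in the later step lie near the share of all genes, and the 1 of 8 that fell lies below it. Elavl1 (HuR), the Hu protein found in most cells, fell by 0.79 ± 0.07 at E11.5 relative to E9.5 (adjusted p = 6.3e-09), and its 6 probe sets disagreed. Nova2, the relative of Nova1, rose by 2.09 in the earlier step and fell by 0.67 in the later one. Rbfox2, which is also active outside the nervous system, rose by 0.55 and by 0.87, while another of its probe sets fell by 0.80 in the later step (adjusted p = 3.2e-05) and the remaining ones were at -0.19 and -0.20 without a call. Celf3 and Celf2 rose by 1.84 and 1.26 in the earlier step, Celf6 by 0.84 in the later one, and Celf1, a broadly found member, by 0.26 in the later one. The Celf6 probe set lay near the dim end of the array, with a mean of 3.79 over the 16 arrays. The probe sets of Celf1 disagreed in the later step, where a dimmer one fell by 1.59 (adjusted p = 2.0e-08) and another rose by 0.85. Another bright Celf2 probe set had most of its rise in the later step (2.48). Ptbp3 differed by -0.05 and -0.09 without a call, whereas a dimmer probe set moved by 0.89 and -2.47.

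Among 16 other tissue-restricted RNA-binding regulators, 8 rose and 2 fell at E11.5 relative to E9.5 (median 0.50), and 4 rose and 7 fell at E13.5 relative to E11.5 (median -0.23). The shares of all genes were 31.0% and 26.9%, then 27.9% and 27.0%, so the 4 of 16 that rose in the later step lie near the share of all genes. Srrm4, which promotes neuronal microexons, rose by 1.94 in the earlier step, and its dimmer probe sets were at 0.36 and, without a call, at -0.21. Msi1, an RNA-binding protein of neural progenitors, rose by 1.22 in that step, although another of its probe sets went the other way (-1.15). Khdrbs3 and Esrp1, an epithelial splicing regulator, fell by 0.92 and 0.79. Esrp2, on the same list, went the other way and rose by 0.85 (adjusted p = 1.1e-05), and its dimmer probe set by 1.17. Of 7 surface ectoderm markers, 3 fell and 0 rose in that step. Their sums were 539 to 619 at E11.5, against 901 to 1557 at E9.5, and their part in the Esrp1 and Esrp2 results was not tested. In the later step Srrm3, a relative of Srrm4, rose by 0.60, and Qk and Rbm38 fell by 1.60 and 1.52. Another Qk probe set rose by 0.35, others fell by 0.89, 0.85 and 0.34, and the remaining ones were not called.

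Of 5 measured genes that Ptbp1 is known to hold down through splicing, all 5 rose at E11.5 relative to E9.5 (median 1.68), where 31.0% of all genes rose. Sv2a, a synaptic vesicle protein, rose by 2.28, Kif5a, a neuronal kinesin, by 1.69, and Gabbr1, a GABA-B receptor subunit, by 1.68, while Ptbp1 itself was not called. In the later step, where Ptbp1 fell, 2 rose and 1 fell (median 0.21), where 27.9% of all genes rose and 27.0% fell. Kif5a rose by 1.62 and Gabbr1 by 1.42, and Dlg4, a postsynaptic scaffold, fell by 0.39, with a dimmer Dlg4 probe set at 0.54 and a dimmer Kif5a probe set at -0.82. All 12 neuron markers also rose in the earlier step, and their part in the rise of these 5 genes was not tested.

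Of 8 genes of the Rest and miR-124 circuit, 6 rose and 1 fell at E11.5 relative to E9.5 (median 0.50), and 1 rose and 4 fell at E13.5 relative to E11.5 (median -0.18), against 31.0% and 26.9% of all genes, then 27.9% and 27.0%. Mir124a-1hg and Mir124-2hg, host transcripts of miR-124, rose by 2.45 and 0.79 in the earlier step, where Ptbp1 was not called, and differed by -0.08 and -0.20 in the later one without a call. The mature microRNA was not measured. Rcor2, a corepressor partner, rose by 0.71 and then fell by 1.01. Rest itself, the repressor of neuronal genes, rose by 0.64 at E11.5 relative to E9.5 (adjusted p = 8.1e-07), fell by 0.43 at E13.5 relative to E11.5, and was 0.20 higher at E13.5 than at E9.5 (adjusted p = 0.017). Another Rest probe set did the opposite in both steps (-1.22, then 1.41).

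**Figure D5:**
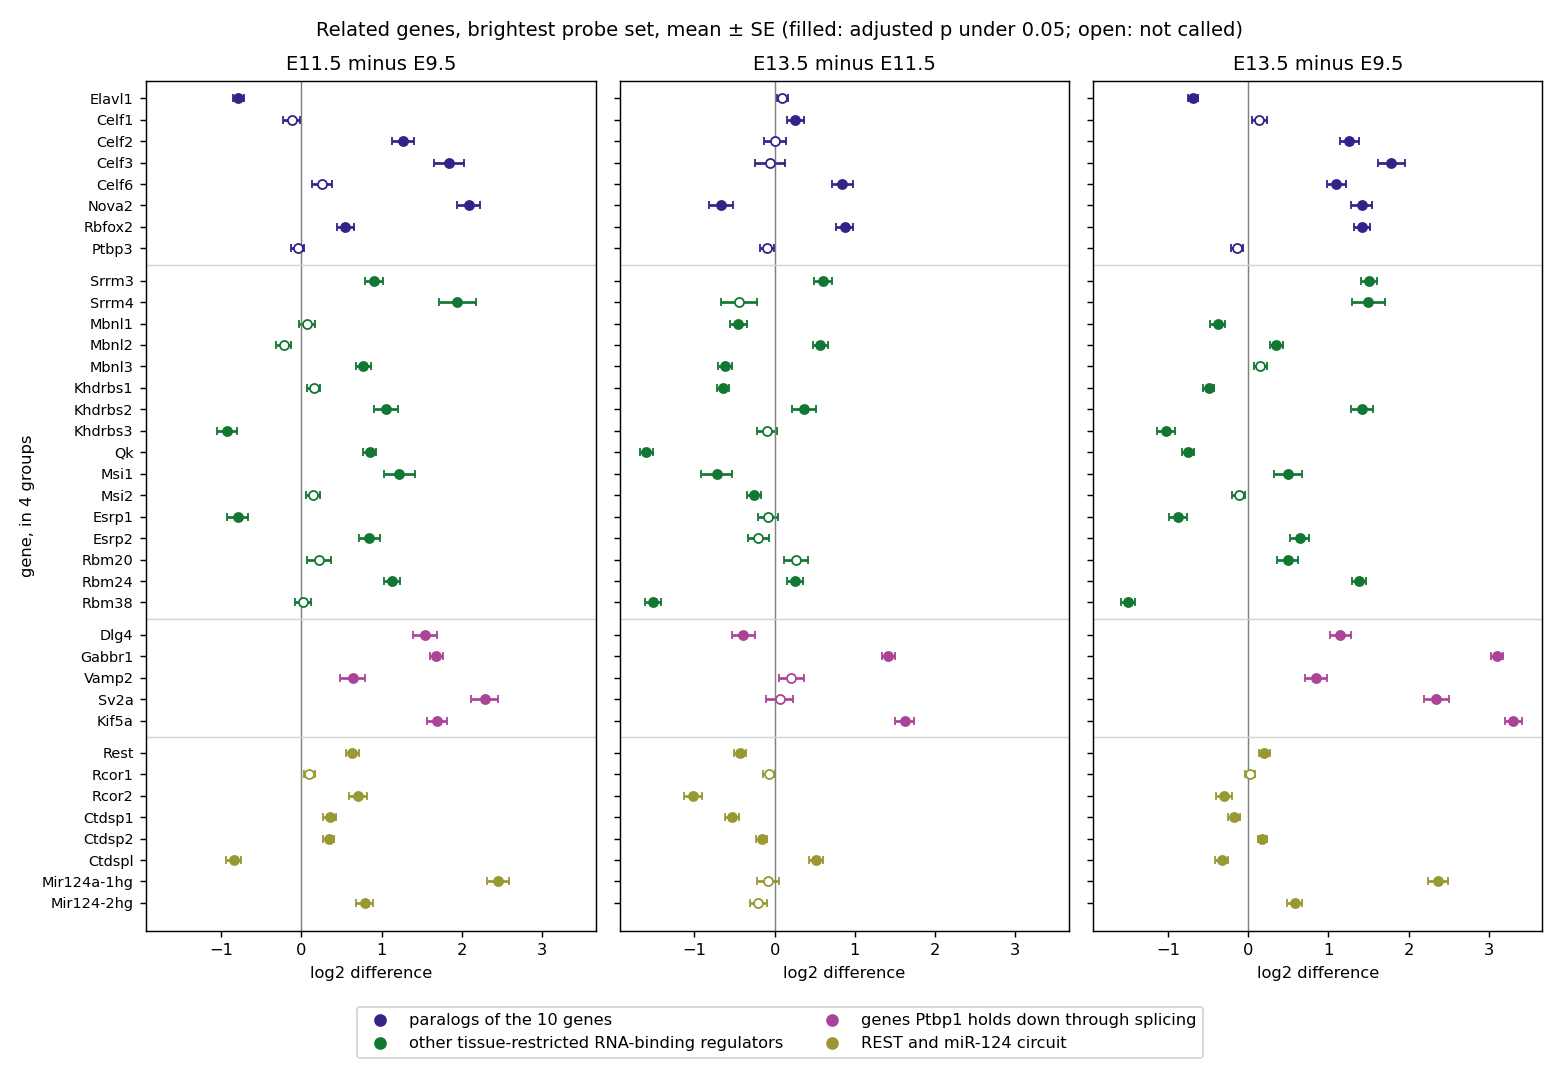
Log2 differences of the paralogs, the other regulators, the genes held down by Ptbp1 and the Rest and miR-124 genes, in the 3 comparisons, with bars of 1 SE and filled points for called differences. The 5 genes held down by Ptbp1 all lie above 0 at E11.5 relative to E9.5, with a median of 1.68.

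Over the 16 arrays, the genes with profiles nearest to Elavl3 were Nefl, Mapt and Cadps, with root mean square differences of 0.234, 0.242 and 0.249 log2 units between centred profiles. Those nearest to Ptbp2 were Fam135a, Grb10 and Hnrnph1 (0.0972, 0.103 and 0.109). Those nearest to Ptbp1 were Lix1, Dnaja2 and Tomm70a (0.0912, 0.102 and 0.107). The likeness follows the stages and is a description over 18193 genes.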

How the data were processed

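Each deposited value is the linear intensity of a probe set after RMA (background correction, normalization between arrays and summary over probes) by the authors, as named in the submitters' processing notes without a version. Log2 was taken with no pseudocount, and no further scaling was done. Of 45101 probe sets, 64 were controls, 932 named several genes and 9160 were unnamed here. The other 34945 named 1 of 18193 genes in the platform annotation, and updating symbols through RefSeq changed 0.

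Each gene was read from its brightest probe set by the mean of 16 arrays. Stages were compared with limma 3.58.1 in R 4.3.3 (lmFit and eBayes over all 3 stages), with Benjamini-Hochberg adjustment over all genes or all probe sets, and an adjusted p under 0.05 was called. This fit shares 1 spread per gene over the stages, so the SE and p of a comparison also depend on the stage outside it. The difference between Ptbp2 and Ptbp1 was compared with a two-sided exact permutation test over arrays. The limma fit was also run on simulated data with 1 spread per gene for all stages and few changed genes. Spreads that differ between stages were not covered by that run. Arrays are labelled as separate samples, and the labels do not say whether each held 1 embryo or a pool, so p-values measure the spread between these arrays. Every array column was used. All 10 genes are described, and from each further list the 3 largest called changes in each direction could be named. Every paralog is named as well, and Esrp2 is named beside Esrp1. The members and lists were chosen with earlier results of these data known. The alternatives tried were the mean of all probe sets, the second-brightest probe set, a filter on dim genes, other scaling, fits of the compared stages alone, the title prefix as a random block and leaving out arrays.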

Additional observations from a re-analysis of the deposited data

Results flagged for a closer look

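In 8 of 90 sets of arrays, each set being 1 probe set or the switch at 1 stage, a single sample lay far from the others of its stage, where 4.5 would be expected by chance. The sets are not independent, since probe sets of 1 gene share transcripts and the switch is computed from Ptbp2 and Ptbp1. Sample B62E7K is counted for both Ptbp2 and the switch, and the 8 were not tested against the 4.5. At E13.5, sample B63E7K had 4.46 for the dimmest Elavl2 probe set, against 4.00 to 4.17 in the other arrays, and 8.83 for the second-brightest Elavl3 probe set, against 9.0 to 9.07. At E13.5, sample B62E7K had 10.66 for the brightest Ptbp2 probe set, against 10.87 to 10.96, and 0.41 for Ptbp2 minus Ptbp1, against 0.66 to 0.69. At E11.5, sample 52 had 9.32 for the brightest Elavl4 probe set, against 9.54 to 9.57, and sample 33 had 3.70 for the dimmer Nova1 probe set, against 4.39 to 4.52, and 4.32 for the third-brightest Rbfox1 probe set, against 5.25 to 5.43. At E9.5, sample 16 had 6.09 for the brightest Celf4 probe set, against 5.61 to 5.78.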

How the results depend on the processing

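The counts of called members, rises and falls together, kept to within 1.5 times under every alternative run. With 8 or 9 of the 10 called, only a loss of calls could pass that limit, and a change of direction does not alter the count. Celf5, with 1 probe set, was not in the run with the second-brightest. The switch changed most with the choice of probe sets. Ptbp2 minus Ptbp1 at E11.5 relative to E9.5 was -0.60 with the mean of all probe sets and -3.33 with the second-brightest, and for E13.5 relative to E11.5 it was 1.49 and 4.34, both called. Both settings use the second-brightest Ptbp1 probe set. With pairings chosen after the data were seen, the change at E13.5 relative to E11.5 was -0.51 (brightest Ptbp2 set with dimmest Ptbp1 set), 1.10 (dimmer Ptbp2 set with brightest Ptbp1 set) and 0.39 (dimmer Ptbp2 set with dimmest Ptbp1 set), all 3 called, and with the first pairing that at E13.5 relative to E9.5 was 0.27 and was not called (adjusted p = 0.0909). Leaving out single arrays gave 0.61 to 0.74, 0.15 to 0.27 and 0.80 to 0.94 for the 3 comparisons in the order E11.5 to E9.5, E13.5 to E11.5 and E13.5 to E9.5. The second was called without E11.5 sample 36, 51 or 52 or E13.5 sample B62E7K.

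Among single genes, Elavl4 at E13.5 relative to E11.5 was 0.055 with the mean of all probe sets and 0.24 with the second-brightest. With the second-brightest, Nova1 was -0.20 and Ptbp2 0.27 in the same comparison, and Ptbp1 was 0.13 at E13.5 relative to E9.5. Ptbp1 at E11.5 relative to E9.5 ranged over -0.0067 to 0.083 when single arrays were left out. Without the E9.5 samples 13 and 15, Ptbp2 at E13.5 relative to E9.5 was -0.017, and Elavl2 and Elavl4 at E13.5 relative to E11.5 were called (adjusted p = 0.025 and 0.011). Without sample 13 alone, Elavl4 was called there too (adjusted p = 0.034). The cause of these moves was not tested. With 4 to 6 arrays a stage, their number limits the precision, and dim probe sets lie on coarse steps of whole numbers.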

Other observations

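The second-brightest Ptbp1 probe set was 1 of 47 named probe sets (0.134% of 34945) that stood at E11.5 at least 2 log2 units above both other stages, and it ranked 7 by that margin, at 4.07. The margin was chosen after its values were seen. The 47 probe sets name 46 genes, of which 42 have 2 or more probe sets, and in 1 of these 42 another probe set passed the same margin.

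Of the 10 genes, 5 separated the E13.5 samples by title prefix, and so did 1585 of all 18193 genes (8.71%). The members were not tested against that share, and the share that a random split of these samples would separate was not computed. Elavl3, Celf4 and Rbfox1 were higher in every B62 sample than in every B63 sample, and Elavl4 and Ptbp2 were lower. With the prefix as a random block in the limma fit, the consensus correlation was 0.60. Only the E13.5 arrays have a prefix, and each other array was a block of its own. The fit shares 1 spread per gene over stages whose spread differed (Elavl3 SD 0.61 at E9.5 and 0.066 at E13.5). The 0.60 is therefore not a measure of likeness within a prefix alone. No block by prefix was used for the switch. The labels do not say what the prefix stands for.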
